A study of Mus musculus with 22 samples.

Results

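The genes described here are 8 genes of steroid hormone reception and of steroid handling in the gut, out of 54838 genes in the count table. They were chosen by name and were found in the table by their Ensembl identifiers. Nr3c1 encodes the glucocorticoid receptor (GR) and Nr3c2 the mineralocorticoid receptor. Hsd11b1 and Hsd11b2 encode the enzymes that switch glucocorticoids on and off inside cells. Hsd3b2 and Hsd3b3 encode 3-beta-hydroxysteroid dehydrogenases, Cyp11a1 encodes the enzyme that opens steroid synthesis from cholesterol, and Nr5a2 encodes LRH-1, a nuclear receptor of the gut epithelium. Bulk RNA sequencing was done on small intestine of female FVB/N mice, 8 to 14 weeks old, that drank normal water or water with 25 mM ZnSO4 for 7 days. GRWT mice carried the normal receptor. GRDim mice carried, in every cell and on both alleles, a point mutation of Nr3c1 that weakens the pairing of GR molecules and their contact with DNA. Both came from crosses of heterozygous parents. Of the 22 libraries, GRWT mice gave 5 for each drinking water and GRDim mice 6 for each. By label, 12 were ileum and 10 were intestinal epithelial cells (IEC), the latter scraped from the inner part of the distal ileum. The labels do not say that each library was a separate mouse, so that the p-values measure the spread between these libraries.

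The adrenal gland of the mouse secretes mainly corticosterone, the active glucocorticoid, which tissues can turn into an inactive 11-keto form. The enzyme made from Hsd11b1 turns the inactive form back into the active one, with NADPH that H6pd supplies inside the endoplasmic reticulum. The enzyme made from Hsd11b2 does the reverse and so shields the mineralocorticoid receptor, which binds corticosterone as well as aldosterone. The intestine can also make glucocorticoids itself, in its epithelium, and LRH-1 is known to drive the genes of that synthesis. There Cyp11a1 makes pregnenolone and a 3-beta-hydroxysteroid dehydrogenase makes progesterone from it. GR bound to a hormone works as a dimer on a pair of facing AGAACA hexamers, and as a monomer together with other factors.

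The libraries fell into 12 that were rich in smooth muscle transcripts (Myh11, the smooth muscle myosin, at 298 to 463 CPM) and 10 that were poor in them (3.22 to 20.5 CPM). CPM is the read count of a gene scaled to a common library size, here after TMM normalisation, except for Myh11, which was scaled by plain library totals. This division did not follow the tissue labels, since the muscle-rich libraries held 5 labelled ileum and 7 labelled IEC, and the muscle-poor ones 7 and 3. Epithelial markers were present in all of them. In GRDim mice the division ran along the labels, and in opposite ways: the muscle-rich libraries were IEC on water and ileum on zinc, the muscle-poor ones ileum on water and IEC on zinc. Within either kind, zinc and label cannot be told apart in GRDim mice. Genotype and label cannot be told apart in muscle-poor libraries on zinc, which were all ileum in GRWT and all IEC in GRDim mice. GRWT zinc ileum replicate 3, which is muscle-poor, stood apart: its ileal segment markers summed to 379 CPM, against 11140 to 14690 in the other muscle-poor libraries, and its proximal small intestine markers to 13199 CPM, against 175 to 253. Muscle-poor tests are of all 10 libraries unless it is said that this one was left out. Without it, GRWT mice on zinc are 1 muscle-poor library, which the tests assume to vary like the other groups. Totals ran from 13149951 to 15620744 counts, and 3 counts, the floor of detection, were 0.177 to 0.319 CPM. Comparisons were made with the edgeR quasi-likelihood test within each kind of library, and a call needed a log2 fold change beyond 0.8 in either direction at an adjusted p-value below 0.05.

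Hsd3b3 was the member that moved most, and its start region is therefore shown, with that of its neighbour Hsd3b2, which had far fewer reads. Hsd3b3 (ENSMUSG00000062410) lies on chromosome 3, from 98741523 to 98763127 on the minus strand in GRCm38, and Hsd3b2 (ENSMUSG00000063730) on the same strand at 98709255 to 98724543. The windows are from RefSeq (GRCm38.p6) and run from 250 bases before to 50 after an annotated start. They were taken for 6 of the 8 members. They were searched on both strands for the full element (AGAACA and TGTTCT with 3 bases between them), for AGAACA alone, and for CAAGGTCA and CAAGGCCA, which the NR5A family of receptors can bind. Capitals mark a match.
Hsd3b3, chr3:98763079-98763378, minus strand: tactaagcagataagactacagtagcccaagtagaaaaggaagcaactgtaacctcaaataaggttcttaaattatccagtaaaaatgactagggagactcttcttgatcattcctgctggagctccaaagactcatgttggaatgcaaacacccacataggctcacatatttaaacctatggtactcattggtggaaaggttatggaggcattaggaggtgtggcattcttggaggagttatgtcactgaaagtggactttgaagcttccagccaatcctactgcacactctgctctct
Hsd3b2, chr3:98724494-98724793, minus strand: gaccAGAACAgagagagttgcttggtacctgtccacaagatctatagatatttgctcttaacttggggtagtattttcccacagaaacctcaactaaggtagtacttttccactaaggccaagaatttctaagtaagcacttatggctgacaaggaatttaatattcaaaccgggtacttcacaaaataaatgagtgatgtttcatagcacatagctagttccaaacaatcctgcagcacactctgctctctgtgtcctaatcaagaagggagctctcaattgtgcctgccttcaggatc
The Hsd3b3 window held none of these letters, nor did a second annotated start of the gene, whose window (98762361 to 98762660) was identical to the first in 297 of 301 aligned positions. The Hsd3b2 window held AGAACA at -246. The windows of Hsd3b2 and Hsd3b3 shared 149 identical bases over 319 aligned positions. AGAACA alone occurred in 19.0% of all 32851 promoter windows, and the full element in 3 of them. Nr5a2 has a pair of windows, each with an AGAACA hexamer, at -29 in the first and, read on the other strand as TGTTCT, at -188 in the second. These matches are descriptions of letters and say nothing of binding.

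Nr3c1 (ENSMUSG00000024431, chromosome 18, 39410545 to 39519421, minus strand) was the most abundant member, at 214 to 318 CPM. Counts per gene do not show the point mutation, so that its level does not check the genotype labels. In muscle-rich libraries Nr3c1 was at 276, 289 and 272 CPM in GRWT mice on water and at 318, 286 and 257 CPM in GRWT mice on zinc. It was at 214, 218 and 214 CPM in GRDim mice on water and at 281, 291 and 252 CPM in GRDim mice on zinc. The 3 GRDim water libraries lay below all 9 others. The difference between the genotypes on water was -0.36 ± 0.07 (log2 fold change ± SE, adjusted p = 0.00135, edgeR), which is under the fold that was asked for, so that Nr3c1 was not called. On water 38.7% of all genes tested passed that adjusted p-value, and the groups did not overlap for 54.0% of them. In GRDim mice Nr3c1 was higher on zinc than on water by 0.33 ± 0.07 (adjusted p = 0.0139, edgeR), again under the fold, without overlap, as for 32.1% of genes. This p-value held in 7 of 12 fits that each left out a library, and 7.7% of genes passed it. Read within the labels, GRDim libraries on water and on zinc overlapped among those labelled ileum (216 to 255 against 252 to 291 CPM) and did not among those labelled IEC (214 to 218 against 272 to 300 CPM). Within each label the kind of library changed with zinc in these mice. In GRWT mice the effect of zinc was 0.05 ± 0.07 (adjusted p = 0.826), and on zinc the genotypes differed by -0.08 ± 0.07 (adjusted p = 0.505).

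In muscle-poor libraries Nr3c1 was at 308 and 275 CPM in GRWT mice on water, at 312 and 288 CPM in GRWT mice on zinc, at 216, 249 and 255 CPM in GRDim mice on water and at 300, 273 and 272 CPM in GRDim mice on zinc. The GRDim water libraries were again the 3 lowest, by -0.29 ± 0.12 against GRWT mice, but this did not pass the test (adjusted p = 0.88, edgeR). Without GRWT zinc ileum replicate 3 the value was -0.29 ± 0.09 (adjusted p = 0.108). Zinc in GRDim mice gave 0.24 ± 0.11 (adjusted p = 0.651), or 0.24 ± 0.08 without that library (adjusted p = 0.106). GRDim and GRWT libraries on water did not overlap for 41.7% of the genes tested there. The difference between the genotypes on water was no different between the kinds of library beyond its error (-0.09 ± 0.13, muscle-rich minus muscle-poor, adjusted p = 0.879, or -0.09 ± 0.11 without that library, adjusted p = 0.718).

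Nr3c2 (ENSMUSG00000031618, chromosome 8, 76899442 to 77245012, plus strand) was lower in muscle-rich than in muscle-poor libraries, by -0.44 ± 0.07 (adjusted p = 1.26e-05, edgeR), under the fold asked for, as 62.4% of genes differed by kind at this p-value. Its exons share 247 bases, 3.82% of their length, with the non-coding gene Gm10649 on the other strand. In muscle-rich libraries it was at 79.8, 79.5 and 109 CPM in GRWT mice on water, 90.0, 84.9 and 83.4 CPM in GRWT mice on zinc, 63.5, 67.2 and 68.5 CPM in GRDim mice on water and 80.1, 90.7 and 82.0 CPM in GRDim mice on zinc. The GRDim water libraries were below all others, by -0.41 ± 0.11 against GRWT mice (adjusted p = 0.0084, edgeR). This p-value held in all 12 fits without a library, but the fold was under the one asked for, so that Nr3c2 was not called. In this comparison 38.7% of genes passed the p-value and 54.0% did not overlap. In muscle-poor libraries both GRDim groups were low. GRWT mice were at 137 and 122 CPM on water and at 132 and 150 CPM on zinc, and GRDim mice were at 83.8, 90.1 and 95.0 CPM on water and at 101, 86.5 and 91.1 CPM on zinc. The genotypes did not overlap on normal water, as 41.7% of genes did not, nor on zinc, where the label differed too, as 29.6% did not, but the differences of -0.53 ± 0.12 and -0.63 ± 0.12 did not pass the edgeR test (adjusted p = 0.408 and adjusted p = 0.146). Without GRWT zinc ileum replicate 3 they were -0.53 ± 0.09 (adjusted p = 0.00786, edgeR), which passed that p-value but not the fold, and -0.50 ± 0.11 (adjusted p = 0.184). At this p-value 3.16% of 14339 genes passed on water in that fit.

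**Figure D1:**
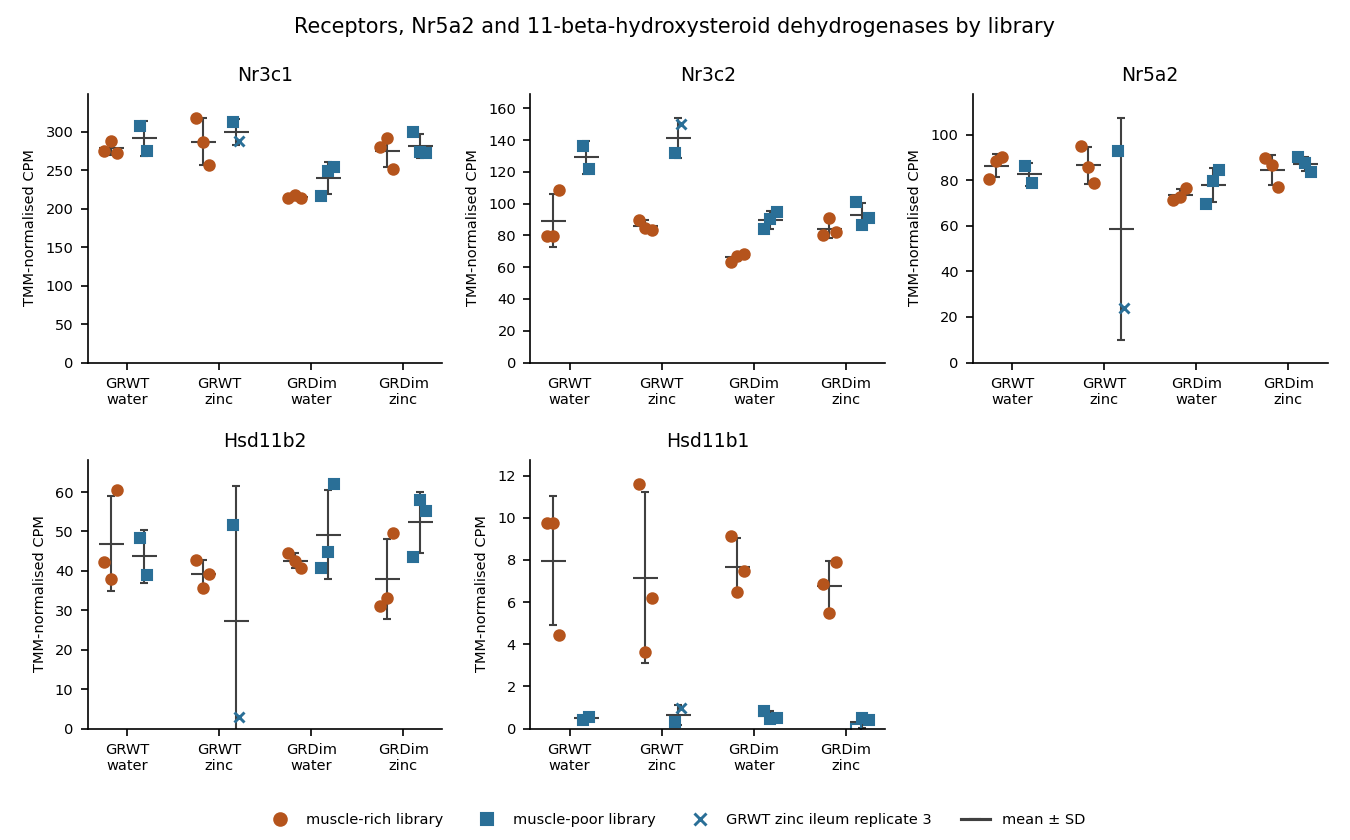
TMM-normalised CPM (linear axes from 0) of Nr3c1, Nr3c2, Nr5a2, Hsd11b2 and Hsd11b1 in each library, by genotype and drinking water, with the mean and SD of each group of 2 or 3 libraries. Nr3c1 and Nr3c2 were lowest in GRDim mice on water among muscle-rich libraries, Hsd11b1 was under 1 CPM in all muscle-poor libraries, and GRWT zinc ileum replicate 3 (cross) was low for Nr5a2 and Hsd11b2.

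Hsd11b1 (ENSMUSG00000016194, chromosome 1, 193221634 to 193264075, minus strand) followed the kind of library. It was at 3.64 to 11.6 CPM, with a median of 7.17, in the 12 muscle-rich libraries, and at 0 to 0.958 CPM, with a median of 0.476, in the 10 muscle-poor ones. The 2 kinds did not overlap, as for 22.6% of genes, and the difference was 3.91 ± 0.29 on the log2 scale (adjusted p = 1.11e-10, edgeR, over 22 libraries with the condition as a covariate). It was called in all 22 fits that left out a library. This is no result particular to Hsd11b1, since 20.7% of the 16389 genes tested were called higher in muscle-rich libraries. Smooth muscle markers summed to 1578 to 2563 CPM in muscle-rich and 197 to 331 CPM in muscle-poor libraries, and fibroblast markers to 592 to 984 and 15.1 to 57.1 CPM. In bulk tissue, fewer cells of a type and less RNA per cell cannot be told apart. Within muscle-rich libraries Hsd11b1 was at 9.75, 9.75 and 4.42 CPM in GRWT mice on water, 11.6, 3.64 and 6.21 CPM in GRWT mice on zinc, 9.13, 6.46 and 7.48 CPM in GRDim mice on water and 6.87, 5.47 and 7.88 CPM in GRDim mice on zinc. All 4 groups overlapped, and no comparison of zinc or genotype passed the test, with log2 fold changes of -0.21 to -0.04 and standard errors of 0.41. Of the muscle-poor libraries 1 had no read of Hsd11b1, and the gene was removed there by the count filter. Lamb3 lies over Hsd11b1 on the other strand but shares no exon bases with it.

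Hsd11b2 (ENSMUSG00000031891, chromosome 8, 105518755 to 105523988, plus strand) was at 31.2 to 62.1 CPM in 21 libraries and did not differ by kind of library beyond its error (-0.06 ± 0.26, adjusted p = 0.861, edgeR). Its levels in muscle-rich libraries were 42.4, 37.9 and 60.6 CPM in GRWT mice on water, 42.9, 35.8 and 39.3 CPM in GRWT mice on zinc, 44.6, 42.4 and 40.8 CPM in GRDim mice on water and 31.2, 33.1 and 49.6 CPM in GRDim mice on zinc. All these groups overlapped. In the muscle-poor libraries it was at 48.5 and 38.8 CPM in GRWT mice on water, at 40.7, 44.9 and 62.1 CPM in GRDim mice on water and at 43.6, 58.0 and 55.2 CPM in GRDim mice on zinc. The pair of GRWT zinc libraries was at 51.5 CPM and, in replicate 3, at 2.98 CPM. No comparison called Hsd11b2, with or without that library. In the fits of zinc in GRWT mice and of genotype on zinc, 0.0431% and 0.0575% of genes were called with it and 0.181% and 0.126% without it. When instead the other library of the pair, GRWT zinc ileum replicate 2, was left out, replicate 3 stood alone for its group and Hsd11b2 was called lower by zinc in GRWT mice by -3.84 (adjusted p = 7.6e-05, edgeR, with the spread taken from the other groups), so that the fold in this group is the value of the library that stands apart. In that fit 30.1% of all genes tested were called for zinc in GRWT mice. Receptor and enzyme can be set side by side per kilobase of exon, on which scale the medians over 22 libraries were 13.6 CPM per kb for Nr3c2 and 23.2 for Hsd11b2. Hsd11b1 had a median of 1.69 CPM per kb in muscle-rich and 0.112 in muscle-poor libraries.

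Hsd3b3, which makes progesterone from pregnenolone, was lower in GRDim than in GRWT mice on water, and higher on zinc than on water in GRDim mice. In muscle-rich libraries it was at 11.3, 11.9 and 17.5 CPM in GRWT mice on water and at 16.1, 16.6 and 13.1 CPM in GRWT mice on zinc. In GRDim mice it was at 1.04, 0.395 and 1.06 CPM on water and at 4.17, 4.23 and 4.64 CPM on zinc. The GRDim values on water were lowest, those on zinc were higher without overlap, and both lay below all 6 GRWT values, which overlapped between water and zinc. Behind these levels stood 6 to 18 reads per library in GRDim mice on water, 60 to 70 in GRDim mice on zinc and 174 to 269 in GRWT mice.

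**Figure D2:**
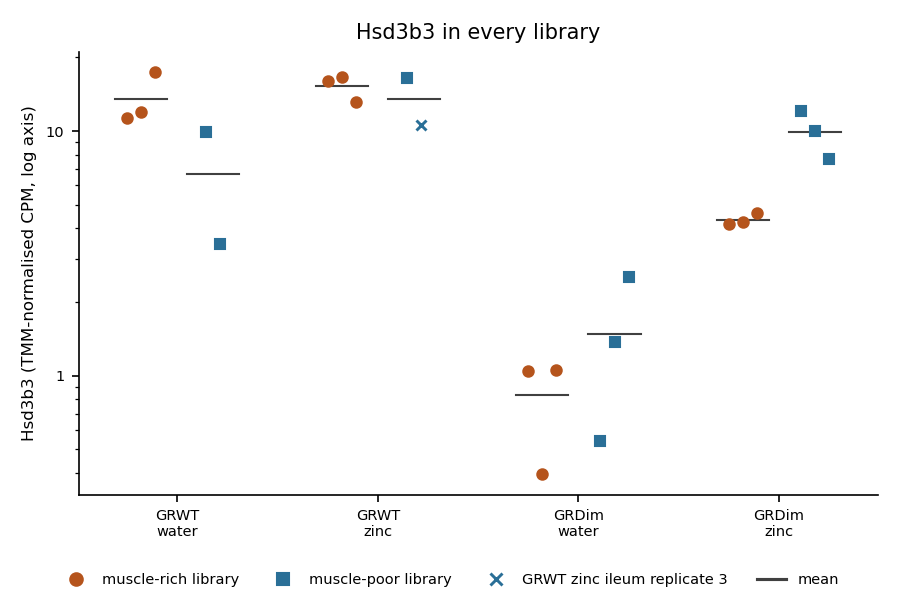
TMM-normalised CPM of Hsd3b3 (log axis) in each library, by genotype and drinking water, with muscle-rich libraries as circles, muscle-poor ones as squares and the library that stands apart as a cross; lines are group means. All 6 GRDim libraries on water (0.395 to 2.54 CPM) lie below all 6 GRDim libraries on zinc (4.17 to 12.1 CPM).

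GRDim against GRWT mice on water, Hsd3b3 was called lower by -3.99 ± 0.26 in muscle-rich libraries (adjusted p = 1.03e-07, edgeR). It was the only called member of the 6 tested, and 5.47% of all genes tested were called lower in this comparison. In GRDim mice it was called higher on zinc than on water by 2.34 ± 0.28 (adjusted p = 0.000635, edgeR), and 0.771% of genes were called higher. In GRWT mice the effect of zinc was 0.18 ± 0.19 (adjusted p = 0.758), where 0.163% of genes were called. On zinc Hsd3b3 was still called lower in GRDim than in GRWT mice, by -1.82 ± 0.21 (adjusted p = 5.31e-05, edgeR), and 1.97% of genes were called lower and 33.9% did not overlap. The effect of zinc differed between the genotypes by 2.16 ± 0.34 (adjusted p = 0.0262, edgeR), and 0.263% of genes passed this test. In muscle-poor libraries 0% did. The calls of zinc in GRDim mice and of genotype held in all 12 fits that left out a library. The call of the difference between the zinc effects held in 7 of 12 and was lost, at adjusted p-values up to 0.084, without GRDim water IEC replicate 4 or 5, GRDim zinc ileum replicate 1 or 2, or GRWT zinc ileum replicate 1. In 1 fit of all 22 libraries with the kind of library as a covariate, the genotype difference on zinc was -1.10 ± 0.37 (adjusted p = 0.0595, edgeR) and the difference between the zinc effects 2.19 ± 0.56 (adjusted p = 0.613), so that neither was called. The comparisons share groups and are not independent of each other.

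In muscle-poor libraries Hsd3b3 was at 9.90 and 3.46 CPM in GRWT mice on water and at 16.4 CPM and, in replicate 3, 10.5 CPM in GRWT mice on zinc. GRDim mice were at 0.540, 1.37 and 2.54 CPM on water and at 12.1, 9.997 and 7.71 CPM on zinc. On water the GRDim values were again below the GRWT values, and the GRDim zinc values overlapped those of GRWT mice. In GRWT mice, too, the zinc values lay above the water values, as in either direction for 39.5% of genes, by 1.04 ± 0.58 (adjusted p = 0.361, edgeR), or 1.30 ± 0.61 without replicate 3 (adjusted p = 0.56). The zinc effects of the genotypes differed by 1.69 ± 0.78 (adjusted p = 0.749), or 1.42 ± 0.84 without it (adjusted p = 0.999). With all 10 libraries no member was called, and between 0 and 8 of 13908 genes were called in any of the 5 comparisons. The comparison with 0 calls was the difference between the zinc effects, where 4.66% of genes were below 0.05 before adjustment. DESeq2 on the same 10 libraries, which was not run without replicate 3, called Hsd3b3 for zinc in GRDim mice (adjusted p = 0.000101) and for genotype on water (adjusted p = 0.0468), and called 0.458% and 0.303% of all genes with an adjusted p there. The zinc effect in GRDim mice was 2.72 ± 0.53 (adjusted p = 0.214, edgeR), where 0.0575% of genes were called. Without GRWT zinc ileum replicate 3 it was 2.72 ± 0.53 and was called (adjusted p = 0.0348, edgeR), and 0.551% of 14339 genes were called higher. The zinc values lay above the water values there, as they or the reverse did for 26.5% of genes. GRDim against GRWT mice on water, the fold was -2.15 ± 0.58 (adjusted p = 0.569, edgeR), or -2.13 ± 0.61 without that library (adjusted p = 0.121), where 0.0288% of genes were called with it and 0.516% called lower without it. On zinc it was -0.46 ± 0.51 (adjusted p = 0.574), or -0.72 ± 0.55 without it (adjusted p = 0.693). A fit over all 22 libraries with a mean per condition and kind gave -1.86 ± 0.67 for the genotype effect on water in muscle-rich minus that in muscle-poor libraries, which did not pass (adjusted p = 0.234), as 1.31% of genes did. Without the library that stands apart it was -1.87 ± 0.70 (adjusted p = 0.126), where 7.44% of genes passed.

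Since zinc and tissue label changed together within each kind of library in GRDim mice, the values were also read within the labels. Among libraries labelled ileum, Hsd3b3 was at 0.540 to 2.54 CPM in GRDim mice on water and at 4.17 to 4.64 CPM on zinc. Among those labelled IEC it was at 0.395 to 1.06 and 7.71 to 12.1 CPM. The zinc values were above the water values without overlap in either reading. Within each label, however, the kind of library changed with zinc, so that this reading cannot tell zinc from the kind of library. With the kind of library and the label both as covariates over 22 libraries, a setting added after the data were seen, the zinc effect in GRDim mice was 2.53 ± 0.41 (adjusted p = 0.00397, edgeR) and the genotype difference on water -3.32 ± 0.42 (adjusted p = 0.000137). This fit assumes that the kind and the label act additively. In GRDim mice zinc went with the combination of kind and label. The fit therefore cannot tell zinc from an effect of that combination.

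Markers of intraepithelial T cells moved with Hsd3b3 in the opposite direction in muscle-rich libraries. Their sum over 8 genes was 69.2 to 110 CPM in GRWT mice on water, 64.0 to 88.1 CPM in GRWT mice on zinc, 419 to 490 CPM in GRDim mice on water and 243 to 251 CPM in GRDim mice on zinc, and all 8 markers were called higher in GRDim than in GRWT mice on water, as were 5.02% of all genes tested. The epithelial markers summed to 19615 to 20484 CPM in GRWT mice on water and 16613 to 17922 CPM in GRDim mice on water, with 1 of 10 called lower, where 5.47% of all genes tested were. In muscle-poor libraries the T cell sums of GRWT and GRDim mice on water overlapped (229 to 472 and 339 to 540 CPM), while Hsd3b3 did not. The part of T cell markers and of epithelial markers in the result was not tested. Zfp697, which shares 281 exon bases (4.39% of the length) with Hsd3b3 on the other strand, was at 1.00 to 2.78 CPM in 21 libraries and at 0.106 CPM in GRWT zinc ileum replicate 3. It was at 1.86, 1.92 and 2.27 CPM in muscle-rich GRWT and at 1.24, 2.70 and 2.12 CPM in muscle-rich GRDim libraries on water, and these groups overlapped. The part of reads from the shared bases in the Hsd3b3 counts was not tested.

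**Figure D3:**
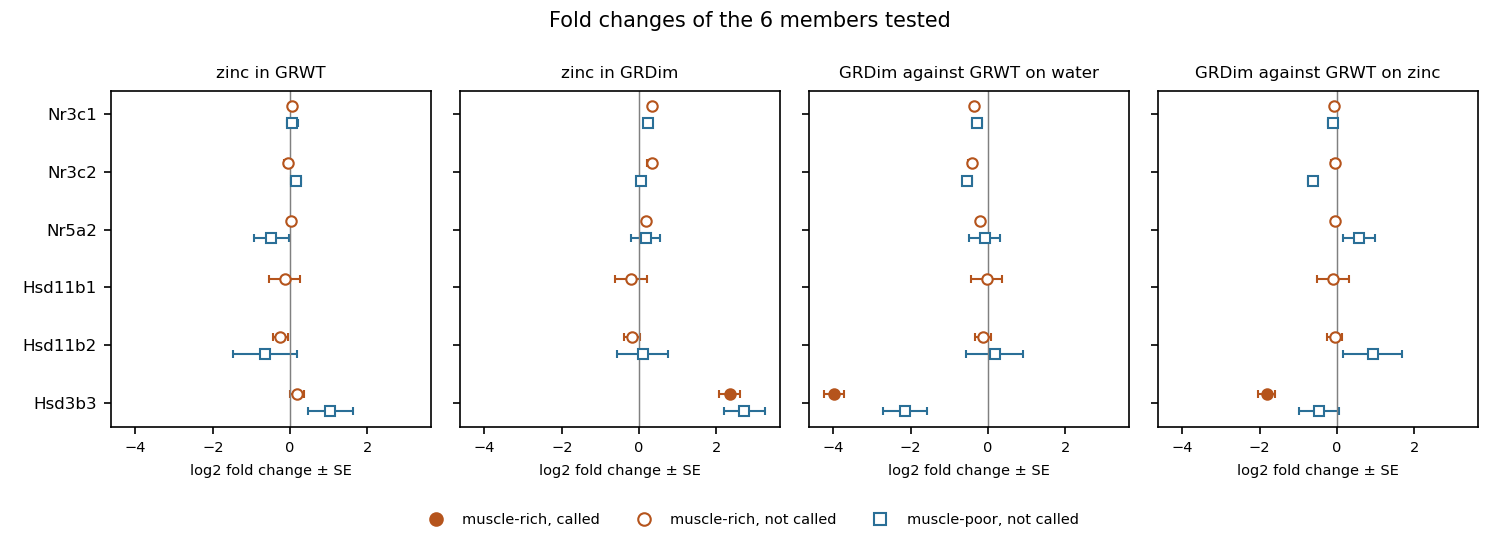
Log2 fold changes ± SE (edgeR) of the 6 members that passed the count filter, for zinc in each genotype and for GRDim against GRWT mice on each drinking water, with filled symbols for called values; Hsd11b1 was not tested in muscle-poor libraries. Hsd3b3 is the only member called, in 3 of the 4 panels and in muscle-rich libraries.

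Hsd3b2 was barely detected, with 55 reads in all 22 libraries, 0 reads in 7 of them, and more than 3 reads in 6. Its reads by library in muscle-rich tissue were 6, 2 and 3 in GRWT mice on water, 11, 8 and 5 in GRWT mice on zinc, 0, 0 and 0 in GRDim mice on water and 1, 1 and 0 in GRDim mice on zinc. Muscle-poor libraries had 3 and 0 reads in GRWT mice on water, 4 and 0 in GRWT mice on zinc, 0, 1 and 1 in GRDim mice on water and 5, 2 and 2 in GRDim mice on zinc. Summed over both kinds, there were 14, 28, 2 and 11 reads in these 4 conditions. The gene did not pass the count filter. Without that filter edgeR called it lower in GRDim than in GRWT mice in muscle-rich libraries, on water (adjusted p = 0.00443) and on zinc (adjusted p = 0.00375), in comparisons that then called 5.84% and 2.53% of 29578 genes, and called it in none of the other comparisons of zinc or genotype. Of its 50-base stretches 26.9% occur in another gene, among them 405 that are also in Hsd3b3, and reads that fit several places were left out by the authors, so that its level may be too low. For Hsd3b3 this share was 8.73%. Hsd3b2 also shares 99 exon bases with Zfp697 on the other strand. Of the other genes of the cluster, Hsd3b6 had 9 reads over all libraries, Hsd3b1 6, Hsd3b5 1 and Hsd3b4 0.

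Cyp11a1 (ENSMUSG00000032323, chromosome 9, 58006411 to 58027023, plus strand) had 33 reads in all, no more than 4 in any library and 0 in 7 libraries. Only GRWT water ileum replicate 3 and GRWT zinc ileum replicate 3, with 4 reads each, were above the floor of 3. Muscle-rich libraries had 1, 0 and 1 reads in GRWT mice on water, 2, 2 and 0 in GRWT mice on zinc, 2, 3 and 3 in GRDim mice on water and 1, 2 and 3 in GRDim mice on zinc. Muscle-poor libraries had 3 and 4 reads in GRWT mice on water, 1 and, in replicate 3, 4 in GRWT mice on zinc, 0, 0 and 0 in GRDim mice on water and 0, 1 and 0 in GRDim mice on zinc. With so few reads no order of the groups is read from them. The gene did not pass the count filter, and without that filter edgeR called it in no comparison of zinc or genotype. Its exons share 145 bases with the non-coding gene Gm17322 on the same strand. The enzymes that act further down the route to corticosterone were as low, with 1 read each of Cyp11b1, Cyp11b2 and Cyp21a1 over all 22 libraries. They are named here after their values were seen.

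Nr5a2 (ENSMUSG00000026398, chromosome 1, 136842571 to 136960448, minus strand) was at 69.5 to 95.1 CPM in 21 libraries and at 24.0 CPM in GRWT zinc ileum replicate 3. In muscle-rich libraries it was at 80.6, 88.3 and 90.0 CPM in GRWT mice on water, at 95.1, 85.9 and 78.9 CPM in GRWT mice on zinc, at 71.2, 72.6 and 76.5 CPM in GRDim mice on water and at 89.7, 86.7 and 76.9 CPM in GRDim mice on zinc. The GRDim water libraries were below all others, by -0.22 ± 0.08 against GRWT mice on water (adjusted p = 0.0314, edgeR), under the fold asked for, and this p-value held in 8 of 12 fits without a library. In this comparison 38.7% of genes passed the p-value and 54.0% did not overlap. The zinc effect in GRDim mice was 0.18 ± 0.08 (adjusted p = 0.163). In muscle-poor libraries Nr5a2 was at 86.1 and 79.0 CPM in GRWT mice on water, at 93.1 CPM in GRWT zinc ileum replicate 2, at 69.5, 79.7 and 84.4 CPM in GRDim mice on water and at 90.2, 87.7 and 83.8 CPM in GRDim mice on zinc. No comparison called it with all 10 libraries or without replicate 3. Without replicate 2 in place of replicate 3 it was called lower by zinc in GRWT mice, by -1.75 (adjusted p = 6.5e-07, edgeR), a value that again rests on replicate 3 alone, in the fit that called 30.1% of all genes.

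Per kilobase of exon the median levels over 22 libraries were 35.7 CPM per kb for Nr3c1, 23.2 for Hsd11b2, 14.3 for Nr5a2, 13.6 for Nr3c2, 1.38 for Hsd3b3, 0.948 for Hsd11b1, 0.0289 for Hsd3b2 and 0.0157 for Cyp11a1. Nr5a2 and Nr3c2 are neighbours in this order that changed places between the kinds of library, at 14.1 and 12.5 CPM per kb in muscle-rich and 14.3 and 15.1 in muscle-poor libraries. The group means differed in this, since in muscle-poor libraries they were 13.997 and 19.96 in GRWT mice on water but 13.2 and 13.8 in GRDim mice on water and 14.8 and 14.3 in GRDim mice on zinc. Hsd3b3 and Hsd11b1 had medians of 1.24 and 1.69 in muscle-rich and 1.38 and 0.112 in muscle-poor libraries. In muscle-rich libraries their order went by genotype, with means of 2.12 and 1.88 in GRWT mice on water and 2.39 and 1.68 in GRWT mice on zinc, against 0.130 and 1.81 in GRDim mice on water and 0.679 and 1.59 in GRDim mice on zinc, and the GRWT means on water lay within their spread (SD 0.534 and 0.724, n = 3). Read across the 21 libraries without GRWT zinc ileum replicate 3, and centred within each kind, Nr3c1 went with Nr5a2 (Pearson r = 0.90, or 0.19 with that library) and with Hsd3b3 (r = 0.87). Hsd3b2 went with Hsd3b3 (r = 0.83), but had only 55 reads in these libraries and 0 in 6 of them. Hsd11b1 and Hsd11b2 had r between -0.37 and 0.18 with the other members and with each other. With that library Hsd11b2 was at 0.92 with Nr5a2, at -0.51 with Cyp11a1 and at -0.42 with Nr3c2, and Hsd11b1 at -0.43 with Nr5a2. The libraries share 4 conditions, so that these are descriptions.

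The genes most like each member over those 21 libraries, among 12518 genes with a mean of at least 1 CPM, were Cubn (r = 0.95), Acvr2a (0.95) and Dpyd (0.94) for Nr3c1. For Nr3c2 they were Slc10a2, the ileal bile acid transporter (0.95), Trdmt1 (0.93) and Ccni (0.92), and with the library that stands apart the value for Slc10a2 was -0.29. Hsd3b3 was followed by Cyp2d26, a cytochrome P450 (0.98), Osbpl6 (0.97) and Galm (0.97), and Nr5a2 by Nr3c1 (0.90), Lclat1 (0.90) and Acbd5 (0.90), of which the latter pair was at -0.30 and -0.52 with that library. Hsd11b1 (Itm2a, Filip1 and Ltbp3, 0.82 to 0.81) and Hsd11b2 (Fastkd1, Cd9 and Creb3l1, 0.75 to 0.72) had no partner as close, but with that library Cd9 was at 0.98 and Creb3l1 at 0.97 for Hsd11b2.

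Further genes of steroid reception, synthesis and conversion were read from 4 lists. Of 15 other receptors, chaperones and coregulators 14 were tested in muscle-rich libraries, with 0 higher and 1 lower in GRDim than in GRWT mice on water, where 5.02% of all genes tested were called higher and 5.47% lower, and a median log2 fold change of -0.11 against -0.0028 over all genes tested. The gene that fell was Esr1, the oestrogen receptor alpha, by -1.34 ± 0.19 (adjusted p = 6.89e-05, edgeR). It was at 6.14, 4.46 and 5.52 CPM in GRWT and at 2.54, 1.78 and 2.00 CPM in GRDim libraries on water. On zinc Esr1 was lower by -1.03 ± 0.18 (adjusted p = 0.00142) and Pgr, the progesterone receptor, by -1.21 ± 0.38 (adjusted p = 0.0386), in a comparison that called 1.97% of genes lower. No gene of this list was called for zinc in either genotype.

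Of 17 other genes of steroid synthesis 7 were tested, and 0 were called higher and 3 lower in GRDim than in GRWT mice on water in muscle-rich libraries. Over all genes tested these shares were 5.02% and 5.47%. The 3 genes were Nr0b2, Cyp17a1 and Star. Nr0b2 encodes SHP, a partner that restrains LRH-1, and was at 13.1, 16.8 and 9.03 CPM in GRWT and at 0.326, 0.263 and 0.177 CPM in GRDim libraries on water (log2 fold change -5.62 ± 1.11, adjusted p = 0.0043, edgeR). In GRDim mice on zinc it was at 9.79, 4.62 and 0.199 CPM, so that 1 library stayed at the low level, and the zinc effect of 4.20 ± 1.23 did not pass (adjusted p = 0.0799). In muscle-poor libraries Nr0b2 was at 5.20 and 3.77 CPM in GRWT and at 1.93, 6.40 and 4.09 CPM in GRDim mice on water, with overlap. Cyp17a1, the 17-hydroxylase, had 8 to 17 reads per muscle-rich GRWT library on water and 1 to 2 in GRDim mice, and was called lower there by -3.10 ± 0.57 (adjusted p = 0.000584) and higher with zinc in GRDim mice by 2.65 ± 0.60 (adjusted p = 0.0158), where 0.771% of genes were called higher. Muscle-rich GRWT libraries were at 1.02, 0.549 and 0.780 CPM on water and, with overlap, at 0.962, 1.31 and 1.68 CPM on zinc. Muscle-poor GRWT libraries were at 0.839 and 0.550 CPM on water and at 2.83 and, in replicate 3, 4.15 CPM on zinc. Star, the carrier of cholesterol into mitochondria, was lower by -0.85 ± 0.19 (adjusted p = 0.0023).

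Of 22 counted genes of steroid conversion and conjugation, the test took in 15, and 0 were called higher and 2 lower in GRDim mice on water in muscle-rich libraries, against 5.02% and 5.47% of all genes tested. They were Hsd17b13 and Hsd17b2, both named 17-beta-hydroxysteroid dehydrogenases, of which Hsd17b2 inactivates oestradiol and testosterone and Hsd17b13 sits on lipid droplets. Hsd17b2 was at 121, 123 and 123 CPM in GRWT and at 66.5, 66.9 and 66.0 CPM in GRDim libraries on water (-0.86 ± 0.07, adjusted p = 7.77e-07, edgeR). In muscle-poor libraries it was at 92.0 and 71.9 CPM in GRWT and at 69.8, 76.8 and 72.2 CPM in GRDim libraries, with overlap. Hsd17b13 went opposite ways. It was at 141, 134 and 167 CPM in muscle-rich GRWT libraries on water and at 53.0, 49.8 and 59.9 CPM in GRDim ones (-1.42 ± 0.10, adjusted p = 7.65e-07), but at 31.8 and 23.0 CPM in muscle-poor GRWT libraries and at 71.3, 83.4 and 88.5 CPM in GRDim ones (1.56 ± 0.34, adjusted p = 0.392, or 0.0748 without GRWT zinc ileum replicate 3). The difference between the 2 effects was -3.003 ± 0.34 (adjusted p = 0.000139, edgeR), a test that was chosen after these values were seen. Akr1c19 rose with zinc in GRDim mice by 1.06 ± 0.26 (adjusted p = 0.0434), and the value in GRWT mice was 0.89 ± 0.25 (adjusted p = 0.231). H6pd, the partner of Hsd11b1, was higher in muscle-rich libraries by 1.43 ± 0.10 (adjusted p = 2.07e-11).

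Of 6 genes that answer to the mineralocorticoid receptor 4 were tested, and in muscle-rich libraries 0 were called higher and 1 lower in GRDim mice on water, against 5.02% and 5.47% of all genes tested. Sgk1, a kinase that both corticoid receptors are known to induce, was at 263, 298 and 303 CPM in muscle-rich GRWT libraries on water, at 66.3, 62.2 and 90.7 CPM in GRDim ones on water and at 274, 229 and 178 CPM in GRDim ones on zinc. It was called lower in GRDim mice on water (-1.96 ± 0.22, adjusted p = 0.000165, edgeR) and higher with zinc in GRDim mice (1.62 ± 0.22, adjusted p = 0.00456). GRWT mice on zinc were at 370, 237 and 278 CPM, which overlapped those on water (0.04 ± 0.21, adjusted p = 0.962). In muscle-poor libraries Sgk1 was at 244 and 93.6 CPM in GRWT and at 74.4, 168 and 158 CPM in GRDim mice on water, with overlap (-0.34 ± 0.48, adjusted p = 0.991, edgeR, or 0.781 without GRWT zinc ileum replicate 3). Zinc values were above water values there in GRDim mice (497, 396 and 462 against 74.4, 168 and 158 CPM), without a call (1.76 ± 0.45, adjusted p = 0.378, or 0.107 without that library). They were above them in GRWT mice as well, at 400 CPM and, in replicate 3, 882 CPM (1.95 ± 0.55, adjusted p = 0.228, or 1.24 ± 0.66 without replicate 3, adjusted p = 0.633). Scnn1a, a subunit of the epithelial sodium channel, was at 8.51 to 13.2 CPM, while its partners Scnn1b and Scnn1g had 6 and 5 reads over all libraries. These channel genes, too, were picked after their values were seen. With all 10 muscle-poor libraries no gene of the 4 lists was called in any comparison. Without GRWT zinc ileum replicate 3, which leaves 1 muscle-poor library of GRWT mice on zinc, Akr1c14 and Akr1c19 were lower in GRDim mice on water, by -0.85 and -0.82. In that fit Akr1c19 was higher with zinc in GRDim mice, by 0.91.

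**Figure D4:**
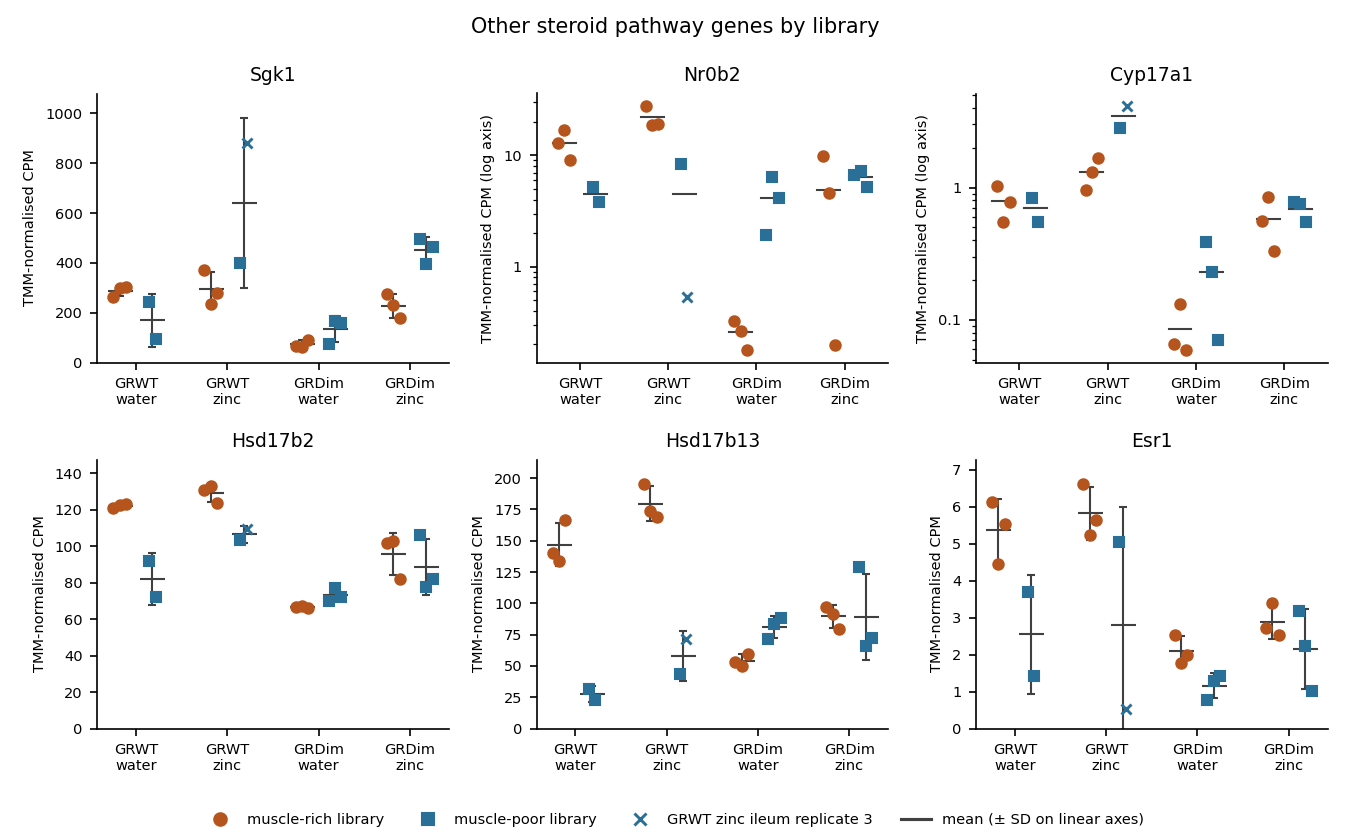
TMM-normalised CPM of Sgk1, Nr0b2, Cyp17a1, Hsd17b2, Hsd17b13 and Esr1 in each library by genotype and drinking water (log axes for Nr0b2 and Cyp17a1, linear axes from 0 for the rest), with group means and, on linear axes, the SD. Hsd17b13 is lower in GRDim than in GRWT mice on water among muscle-rich libraries and higher among muscle-poor ones.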

How the data were processed

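RNA was sequenced by the authors from TruSeq stranded, single-end libraries. Reads were trimmed with Trimmomatic, aligned to mm10 with HISAT2 2.0.4, handled with SAMtools and counted per gene with featureCounts, which left out multimapping reads. The values the authors deposited are raw counts. The annotation release and the strand setting of the counting are not given in the sources used here, so that reads of genes overlapping on opposite strands may not be separated. All count columns were used. A pair of GRDim water ileum columns carries the same name, and these libraries are called unnumbered library a and b. Of 54838 identifiers, 54809 were found in GENCODE vM21, which gave names and coordinates. The authors tested with DESeq2.

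Here edgeR 4.0.16 (limma 3.58.1, R 4.3.3) was used with TMM scaling, a count filter and robust quasi-likelihood tests with Benjamini-Hochberg adjustment. Muscle-rich (12) and muscle-poor (10) libraries, divided at 100 CPM of Myh11, were fitted apart, with 15947 and 13908 genes. Scripts were tested on simulated counts. Alternatives were DESeq2 1.42.0, its size factors, no count filter, single fits of all libraries with covariates or a replicate block, and leaving out each library. The standard errors come from the edgeR fits and include the spread between libraries, while the floor of 3 counts covers counting error only. The members and lists were chosen with earlier results of these data known. All members are named, with up to 5 called genes per list and comparison by fold, the other Hsd3b genes, and the 3 genes most like each member by Pearson correlation of log2 CPM (prior count 2).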

Additional observations from a re-analysis of the deposited data

Results flagged for a closer look

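Hsd11b2 was at 62.1 CPM in GRDim water ileum unnumbered library b, where the next of the 6 GRDim water libraries was at 44.9 CPM. Nr5a2 was at 24.0 CPM in GRWT zinc ileum replicate 3, where the next of the 5 GRWT zinc libraries was at 78.9 CPM. Both samples were far from the rest of their group by Dixon's test, which was run 32 times and picks about 1 group in 20 by chance. The zinc effect on Hsd3b3 in muscle-rich libraries differed between GRDim and GRWT mice by 2.16 ± 0.34 on the log2 scale (adjusted p = 0.0262, edgeR), with all 3 GRDim zinc libraries above all 3 GRDim water libraries.

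The effect of genotype also differed between the kinds of library for 3 of 4 listed genes that were chosen for this test after their values were seen. For Hsd17b13 the muscle-rich minus the muscle-poor effect was -3.003 ± 0.34 on water (adjusted p = 0.000139, edgeR) and -1.63 ± 0.33 on zinc (adjusted p = 0.0167). Without GRWT zinc ileum replicate 3 these were -3.01 ± 0.32 (adjusted p = 7.11e-05) and -2.07 ± 0.37 (adjusted p = 0.0126). The latter value rests on 1 muscle-poor GRWT zinc library, which is assumed to vary like the other groups. For Hsd17b2 it was -0.71 ± 0.17 on water (adjusted p = 0.0421), with and without that library, where the adjusted p was 0.00598. For Nr0b2 it was -5.52 ± 1.31 on water without that library (adjusted p = 0.022), and with it the adjusted p was 0.0731. Of all genes, 1.31% passed this test on water with 22 libraries and 7.44% with 21.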

How the results depend on the processing

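No result changed direction with a call. Over all settings, the counts of called members stayed within 1.5 times in 200 and moved in 46, and of the fold changes 1203 kept their side of the threshold or their value, 121 moved, 28 gained and 19 lost a call. In muscle-rich libraries, without the count filter 2 members were called lower in GRDim mice on water and 2 on zinc, since Hsd3b2 was added. In single fits of all libraries the genotype call on zinc fell to 0 with the muscle split (22 or 21 libraries), the tissue label, no covariate, or the split with the replicate block, where Hsd3b3 was at -1.19 (adjusted p = 0.0655, edgeR). The difference between the zinc effects fell to 0 calls in these fits, with split and label together (22 or 21 libraries), with a mean per condition and kind, and with DESeq2, which gave no adjusted p there. In muscle-poor libraries, 1 member (Hsd3b3) was called for zinc in GRDim mice, and 1 for genotype on water, with DESeq2 and with a mean per condition and kind. The other single fits give 1 effect for both kinds together, so that their calls (1 for zinc in GRDim mice, 1 for genotype on water, and 1 for genotype on zinc with split and label) are not calls in muscle-poor libraries. The causes were not tested beyond the number of libraries in each fit.

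Leaving out each library in turn gave 0 to 1 calls for the difference between the zinc effects in muscle-rich libraries. In muscle-poor ones it gave 0 to 2 for zinc in GRWT mice, 0 to 1 for zinc in GRDim mice, 0 to 2 for genotype on zinc and 0 to 2 for the difference between the zinc effects. The 2 calls were Hsd11b2 and Nr5a2 without GRWT zinc ileum replicate 2, where a lone sample is assumed to vary like the other groups and 30.1%, 31.4% and 39.3% of all genes were called for zinc in GRWT mice, genotype on zinc and the difference between the zinc effects. Replicate numbers did not pair the samples: same-numbered libraries had correlations of -0.232 to 0.29, and 5 of 20 correlated best with their own number. The count filter left Hsd3b2 and Cyp11a1 out of the main tests.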
